A study of Homo sapiens with 3 samples.

Results

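Keratins are the intermediate filament proteins of epithelial cells, and their genes sit in 2 clusters, one on chromosome 12 and one on chromosome 17. The members described here are the 55 autosomal protein-coding genes of GENCODE 44 on GRCh37 whose symbol is KRT followed directly by a number and an optional letter, out of 19229 autosomal protein-coding genes in all. The chromosome 12 cluster holds 27 of them and the chromosome 17 cluster 28. They were set against the sites called for Fra-1 and Fra-2 by chromatin immunoprecipitation and sequencing (ChIP-seq) in MDA-MB-231, an established human breast cancer line that the labels describe as triple-negative and basal B. Both groups are the same line in medium with serum and differ in the antibody alone. Each antibody has 1 list of peaks, with positions and no score. The labels speak of 2 independent replicates, but a single list leaves no spread between them to report, and the input DNA was not analysed here. The files hold no expression, so whether any keratin is made in these cells was not measured.

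A keratin filament is built from pairs of a type I and a type II protein. Type II genes and the type I gene KRT18 lie on chromosome 12, and all other type I genes lie on chromosome 17, where they flank a block of keratin-associated protein (KRTAP) genes of the hair fibre. Simple epithelium makes KRT8 and KRT18 with KRT7, KRT19 or KRT20, the basal layer of stratified epithelium makes KRT5 and KRT14 with KRT15, the layers above it switch to pairs such as KRT1 and KRT10, and wounded skin adds KRT6A, KRT16 and KRT17. Fra-1 and Fra-2 belong to the Fos family and bind DNA in AP-1 dimers with Jun proteins, at the element TGAGTCA, which reads TGACTCA on the other strand. AP-1 sites are known in the regulatory sequence of several keratin genes, among them the first intron of KRT18.

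A peak was counted for a gene when its centre lay within 100 kb of the start site (TSS) of any protein-coding transcript or when it overlapped the gene body. By this rule the keratin genes had 22 Fra-1 peaks and 26 Fra-2 peaks, which are 0.227% of the 9679 and 0.205% of the 12695 autosomal peaks of the lists. They made up 29 separate sites. Of these, 19 were in both lists (overlap of at least 1 bp), 3 in the Fra-1 list only and 7 in the Fra-2 list only. Peaks nearest to a KRTAP gene made up 3 of the Fra-1 and 3 of the Fra-2 peaks, and for all others the nearest TSS of any protein-coding gene was that of a keratin.

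The sequences below show, on the plus strand of GRCh37, which has the nuclear coordinates of hg19, 4 sites of both lists at KRT7, KRT18 and KRT19 of simple epithelium and at KRT15. Capitals mark copies of TGAGTCA or TGACTCA, and for KRT18 and KRT15, where the called peak touches an untranslated exon of an alternative transcript, a window of 29 bases around the element is given in place of the peak.
KRT18 first intron, chr12:53343708-53343736: gtggctaaggcTGAGTCAtctaggagtaa
KRT15 upstream, chr17:39678059-39678087: ttggagcaagaTGACTCAcaggaaatgct
KRT19 upstream, chr17:39686501-39686651: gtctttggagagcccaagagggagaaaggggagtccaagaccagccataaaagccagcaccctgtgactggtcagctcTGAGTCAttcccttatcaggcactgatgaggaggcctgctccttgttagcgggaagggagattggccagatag
KRT7 intron 7, chr12:52641201-52641451: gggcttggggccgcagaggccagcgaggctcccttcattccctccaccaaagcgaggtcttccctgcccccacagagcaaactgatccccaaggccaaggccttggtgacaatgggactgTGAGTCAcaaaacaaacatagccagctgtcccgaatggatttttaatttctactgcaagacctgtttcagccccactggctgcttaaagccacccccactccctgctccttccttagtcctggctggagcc

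Of the 4 sites that held 2 copies of the element, all in both lists, 3 are shown for that reason.
KRT7 upstream, far, chr12:52609401-52609551: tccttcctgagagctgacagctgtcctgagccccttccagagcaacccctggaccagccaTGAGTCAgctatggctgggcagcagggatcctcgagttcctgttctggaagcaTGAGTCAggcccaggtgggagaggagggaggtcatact
KRT12 downstream, chr17:39010551-39010751: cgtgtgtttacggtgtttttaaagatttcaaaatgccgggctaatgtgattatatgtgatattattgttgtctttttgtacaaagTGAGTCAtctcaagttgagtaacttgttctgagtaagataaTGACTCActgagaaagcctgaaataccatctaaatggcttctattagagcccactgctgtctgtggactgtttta
KRT31 upstream, chr17:39560251-39560501: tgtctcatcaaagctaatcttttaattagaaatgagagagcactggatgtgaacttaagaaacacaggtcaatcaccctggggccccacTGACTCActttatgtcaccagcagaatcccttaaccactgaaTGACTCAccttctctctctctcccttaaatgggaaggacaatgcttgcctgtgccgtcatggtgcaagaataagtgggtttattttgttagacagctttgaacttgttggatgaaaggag

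The following 4 sites show the contrasts between lists and between presence and absence of the element. The first was in the Fra-1 list only and held the element near its edge, the second was in the Fra-1 list only and held no copy, and the remaining sites were in the Fra-2 list only.
KRT7 upstream, near, chr12:52624251-52624401: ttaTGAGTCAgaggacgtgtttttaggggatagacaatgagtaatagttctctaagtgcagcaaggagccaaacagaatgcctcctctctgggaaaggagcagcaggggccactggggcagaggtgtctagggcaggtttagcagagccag
KRT86 intron 2, chr12:52674301-52674501: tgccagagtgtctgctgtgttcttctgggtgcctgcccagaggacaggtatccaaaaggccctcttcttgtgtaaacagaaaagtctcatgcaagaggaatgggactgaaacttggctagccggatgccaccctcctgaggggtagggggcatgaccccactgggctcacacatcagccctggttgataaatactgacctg
KRT80 upstream, chr12:52586101-52586251: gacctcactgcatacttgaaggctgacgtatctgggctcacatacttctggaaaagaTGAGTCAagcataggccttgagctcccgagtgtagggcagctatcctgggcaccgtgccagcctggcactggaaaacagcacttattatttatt
KRT83 upstream, chr12:52721401-52721651: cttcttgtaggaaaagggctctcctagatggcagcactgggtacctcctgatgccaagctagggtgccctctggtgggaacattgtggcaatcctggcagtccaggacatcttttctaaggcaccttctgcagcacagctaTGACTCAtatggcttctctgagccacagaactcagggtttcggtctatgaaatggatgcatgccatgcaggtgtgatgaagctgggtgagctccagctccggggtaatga

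On chromosome 12 the peaks stood at the ends of the cluster. The cluster runs from KRT80, at 52562780, to KRT18, which ends at 53346690 (hg19), a span of 784 kb. Of its 27 genes, 13 had a Fra-1 peak in reach (48.1%), where 45.2% of all autosomal and 37.4% of all chromosome 12 protein-coding genes had one. A Fra-2 peak was in reach of 15 (55.6%), beside 58.9% of autosomal and 49.8% of chromosome 12 genes. These shares lie near those of genes at large. The 13 genes with a Fra-1 peak all had a Fra-2 peak as well, beside 42.5% of autosomal and 32.7% of chromosome 12 genes with both. KRT84 and KRT82 of the hair fibre had a Fra-2 peak alone. Of the 1040 chromosome 12 genes, 518 had a Fra-2 peak in reach and 340 had peaks of both lists. The 12 neighbours from KRT75 to KRT77 had neither, as had 38.4% of autosomal and 45.5% of chromosome 12 genes.

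**Figure D1:**
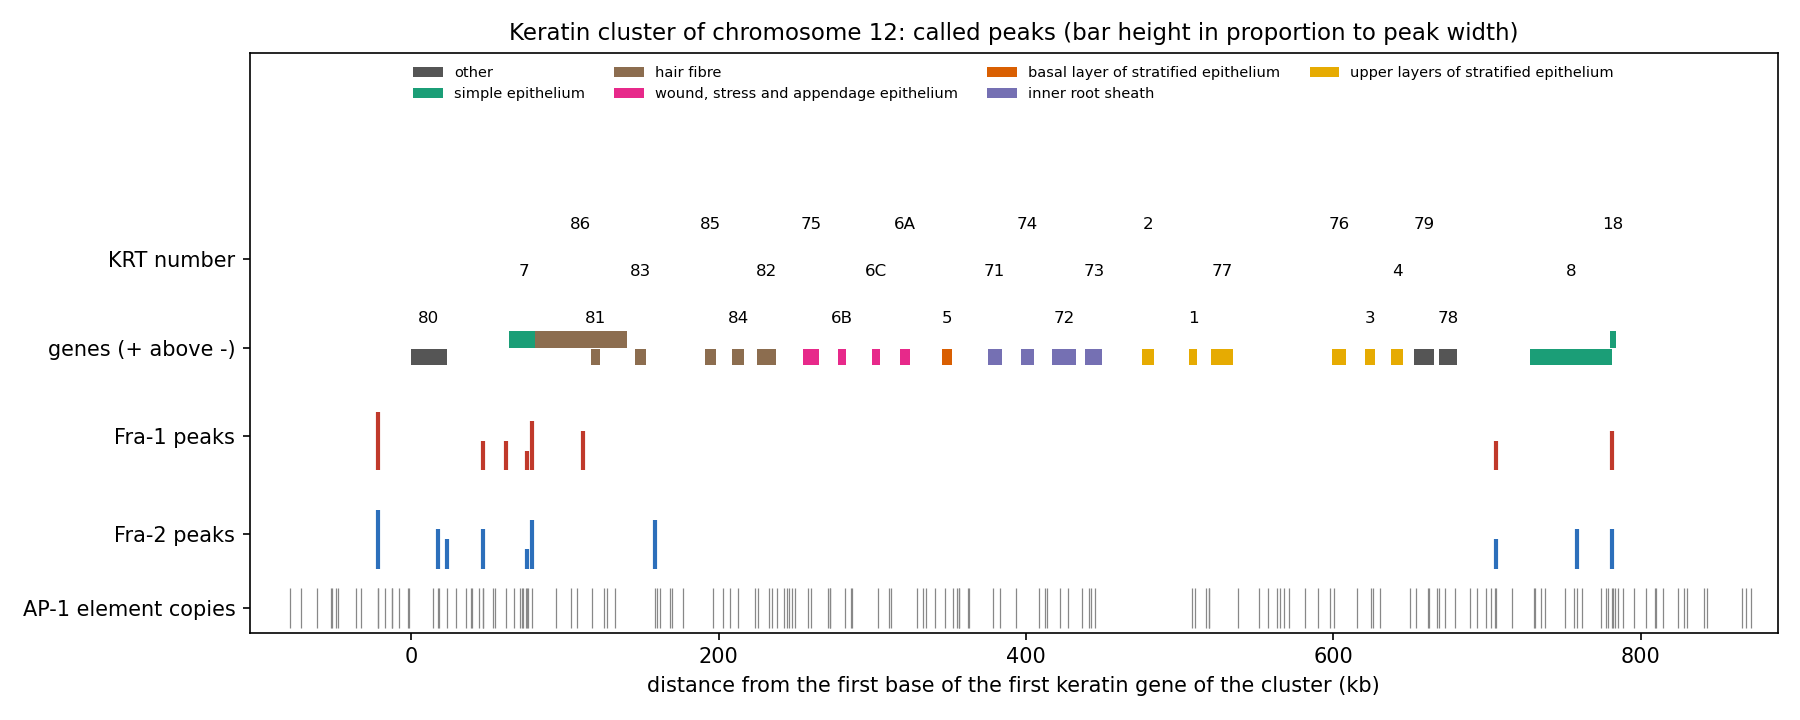
Map of the chromosome 12 cluster. The x axis gives the distance in kb from the first base of KRT80; boxes are gene records coloured by where the keratin is made, bars are called peaks with height in proportion to width, and grey ticks are copies of the AP-1 element. Peaks of both lists stand at the KRT80 to KRT83 end and at the KRT78 to KRT18 end, and the 547 kb between the last Fra-2 peak of the first group and the next one hold none.

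The stretch without a peak covered the middle of the cluster, with hair fibre, inner root sheath and epidermal keratins, the corneal KRT3 and the mucosal KRT4. In the Fra-1 list it ran from 52674501 to 53268201, 594 kb with 22 whole keratin genes from KRT81 to KRT78. In the Fra-2 list it ran from 52721651 to 53268201, 547 kb with 20 keratin genes. KRT5, the basal type II keratin, lay 237 kb from the nearest Fra-1 and 190 kb from the nearest Fra-2 peak. KRT6A, made in wounded skin, lay 213 and 166 kb away, and KRT1, of the layers above the basal one, 194 kb from both. KRT74, of the inner root sheath of the hair follicle, was farthest from Fra-1 at 293 kb, and KRT72 of the same sheath farthest from Fra-2 at 273 kb.

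Copies of the AP-1 element were present in that stretch. The Fra-1 gap held 91 copies of TGAGTCA or TGACTCA and the Fra-2 gap 86. A gap is by definition free of peaks of its list, so none of these copies could lie in one. Over the whole span of the cluster, 7 of 132 copies (5.3%) fell inside Fra-1 peaks and 10 (7.58%) inside Fra-2 peaks, beside 1.73% and 2.27% of the 20882 copies on chromosome 12. Gaps of this length are common: 72 of the 450 gaps between neighbouring Fra-1 peaks on chromosome 12 were at least as long and took up 64% of its sequence, and for Fra-2 63 of 558 gaps took up 55%. Density over the span was 8.93 peaks per Mb for Fra-1, where the chromosome had 3.46, and 11.5 per Mb for Fra-2, where it had 4.28.

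KRT8 and KRT18, the pair of simple epithelium, lie head to head at the end of the cluster and had 2 Fra-1 and 3 Fra-2 peaks each. The peak from 53343601 to 53343801, 200 bp wide in both lists, was centred in the first intron of KRT18, 0.799 kb downstream of the canonical start. It held 1 copy of the element, 21 bp from its centre, and 1 copy of GGAATG, the core of the element bound by TEAD factors (CATTCC on the other strand). The same peak lay 0.035 kb from the start of a long alternative KRT8 transcript, so in the count by gene it belongs to both genes. The canonical start of KRT8 was 30.6 kb from the nearest Fra-1 and 22.3 kb from the nearest Fra-2 peak. A Fra-2 peak absent from the Fra-1 list, from 53321051 to 53321251, was centred in an intron of the longer KRT8 transcripts, 0.898 kb from another of their starts. The shared peak from 53268201 to 53268351 lay between KRT78 and KRT8, 25.5 kb from the start of KRT78, and bounded the gap.

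KRT7, another keratin of simple epithelium, had 6 Fra-1 and 7 Fra-2 peaks in reach, the most of any gene of the cluster in the Fra-2 list. Of these, 2 shared peaks were inside the gene, in intron 6 from 52637951 to 52638051 and in intron 7 from 52641201 to 52641451. The second was 250 bp wide in both lists and had its element 2 bp from the centre. Upstream, the nearest peak was a Fra-1 peak absent from the Fra-2 list, 2.70 kb from the start, with its element 69 bp from the centre. The shared peak 17.6 kb upstream by its Fra-1 centre, from 52609401 to 52609551 in that list and to 52609601 in the Fra-2 list, held 2 copies. KRT7 and the hair keratin KRT86 overlap in GENCODE, and the peak in intron 7 of KRT7 was 1.76 kb from an alternative start of KRT86.

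KRT80, a type II keratin at the outer end of the cluster, had 6 peaks of each factor, yet only Fra-2 peaks close by. A Fra-2 peak from 52586101 to 52586251 lay 0.378 kb upstream of its start, with 1 copy of the element 15 bp from the centre. Another from 52580001 to 52580201 was in its first intron, 5.70 kb from the canonical start, also with 1 copy. The nearest Fra-1 peak was 23.7 kb away. The widest peak of the cluster, 300 bp in both lists from 52541151 to 52541451, lay 44.5 kb downstream of the KRT80 start and held 2 copies.

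Of the hair keratins next to KRT7, KRT86 and KRT83 each had a near peak found in 1 list only. KRT86 had a Fra-1 peak in intron 2 of its canonical transcript from 52674301 to 52674501, which held the TEAD core and no AP-1 element. KRT83 had a Fra-2 peak 6.34 kb upstream from 52721401 to 52721651, 250 bp wide, with 1 copy 19 bp from its centre. KRT81, between them, had no peak within 10 kb, with the nearest Fra-1 peak at 10.9 kb and Fra-2 at 36.2 kb.

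On chromosome 17 nearly every keratin gene had peaks of both lists in reach. The cluster runs from KRT222, at 38810917, to KRT17, which ends at 39781094, a span of 970 kb. A Fra-1 peak was in reach of 26 of its 28 genes (92.9%), and a Fra-2 peak of the same 26, where 54% of all chromosome 17 genes had a Fra-1 and 74.9% a Fra-2 peak. Peaks of both lists were in reach of 52.9% of chromosome 17 genes. KRT222 and KRT24, at the outer end, had neither, as had 24.1% of chromosome 17 genes. No keratin of the cluster had peaks of 1 list alone. Of the 1189 chromosome 17 genes, 642 had a Fra-1 peak in reach, 890 a Fra-2 peak and 629 both. The median was 3.5 Fra-1 and 4.5 Fra-2 peaks per gene, beside 1 of each for all chromosome 17 genes. The members do not count separately, because a single peak near KRT15 was in reach of 12 keratin genes and all 26 genes drew on 14 Fra-1 and 16 Fra-2 peaks.

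**Figure D2:**
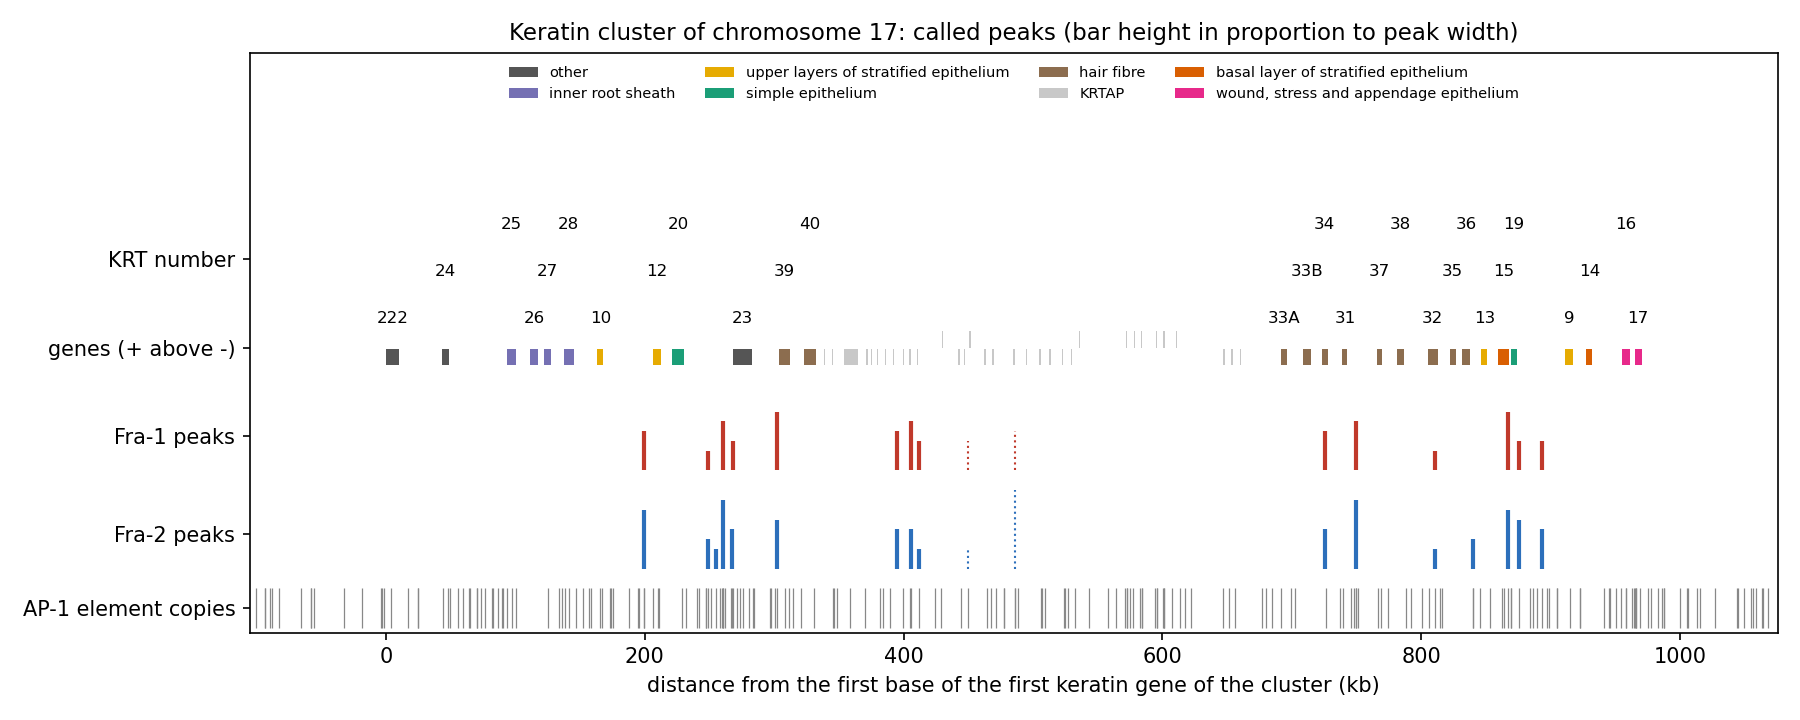
Map of the chromosome 17 cluster, drawn as for chromosome 12, with the distance in kb from the first base of KRT222 on the x axis; dotted bars are peaks beyond 100 kb of any keratin start. Peaks stand in 3 groups, around KRT12 to KRT39, among the KRTAP genes, and from KRT34 to beyond KRT19, and the lists coincide at most of them.

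KRT15 and KRT19 lie side by side, and each had a peak of both lists close to a start. KRT15, a basal keratin, had a peak of 300 bp in both lists from 39677901 to 39678201, with the element 22 bp from the centre. It lay 0.080 kb from the start of an alternative KRT15 transcript and 2.91 kb upstream of the canonical start. KRT19, a type I keratin of simple epithelium, had a peak 2.02 kb upstream of its start, called as 150 bp by Fra-1 (39686501 to 39686651) but as 250 bp by Fra-2 (39686451 to 39686701). Its element was 6 bp from the centre, and a TEAD core lay in the same window. A further shared peak 19.8 kb upstream of KRT19, from 39704301 to 39704451 for Fra-1, was the last before the end of the cluster.

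KRT14, KRT16, KRT17 and KRT9 lay beyond that last peak. KRT14, the basal partner of KRT5, was 38.8 kb from the nearest peak of either list, with 3 Fra-1 and 4 Fra-2 peaks in reach. KRT16 was 64.6 kb from Fra-1 and 64.7 kb from Fra-2, KRT17 72.7 kb from both, and KRT9, of the skin of palms and soles, 23.9 and 24.0 kb. The gap that holds these 4 genes was 363 kb long in the Fra-1 list and 472 kb in the Fra-2 list and reached past the cluster. Gaps at least as long took up 63.9% and 38% of chromosome 17.

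Of the 11 type I hair keratins, 4 had peaks of both lists in the body or within 10 kb of a start and KRT36 had a Fra-2 peak alone, where 16.2% of all chromosome 17 genes had such a Fra-1 and 26.2% such a Fra-2 peak. KRT32 had a shared peak of 100 bp in intron 3, 2.39 kb from the start, with a copy 51 bp from the centre, across the edge of the called interval. KRT31 had a shared peak 6.52 kb upstream with 2 copies, which measured 250 bp for Fra-1 (39560251 to 39560501) but 350 bp in the other list. The peak of KRT36 ran from 39650901 to 39651051, 4.81 kb upstream of its canonical start. KRT39 had a shared peak 9.90 kb downstream of its start by the Fra-1 centre, where the Fra-1 call was the wider one, 300 against 250 bp.

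A separate group lay around the keratins of cornea and gut and around KRT23. KRT12, the corneal type I keratin, had a shared peak with 2 copies of the element 12.8 kb downstream of its start, which the Fra-1 list gives as 200 bp (39010551 to 39010751) and the other list as 300 bp. KRT20, of the intestinal epithelium, had a Fra-1 peak 18.5 kb upstream without an element and Fra-2 peaks 18.0 and 24.3 kb upstream with 1 copy each, none of them shared. The Fra-1 peak and the nearer Fra-2 peak did not overlap, but their centres lay within 500 bp of each other. KRT23 had shared peaks 15.1 and 22.2 kb downstream of its canonical start, and the second reached 350 bp in the Fra-2 list. KRT10, the partner of KRT1, was 31.8 kb from the nearest peak of both lists, with 4 Fra-1 and 5 Fra-2 peaks in reach. It was the last of 7 keratins, from KRT222 on, inside a gap of 302 kb in each list. Gaps at least as long took up 68.9% of chromosome 17 for Fra-1 and 49.4% for Fra-2. KRT25 to KRT28 of the inner root sheath shared 1 peak in reach, at 54.4 to 99.1 kb.

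**Figure D3:**
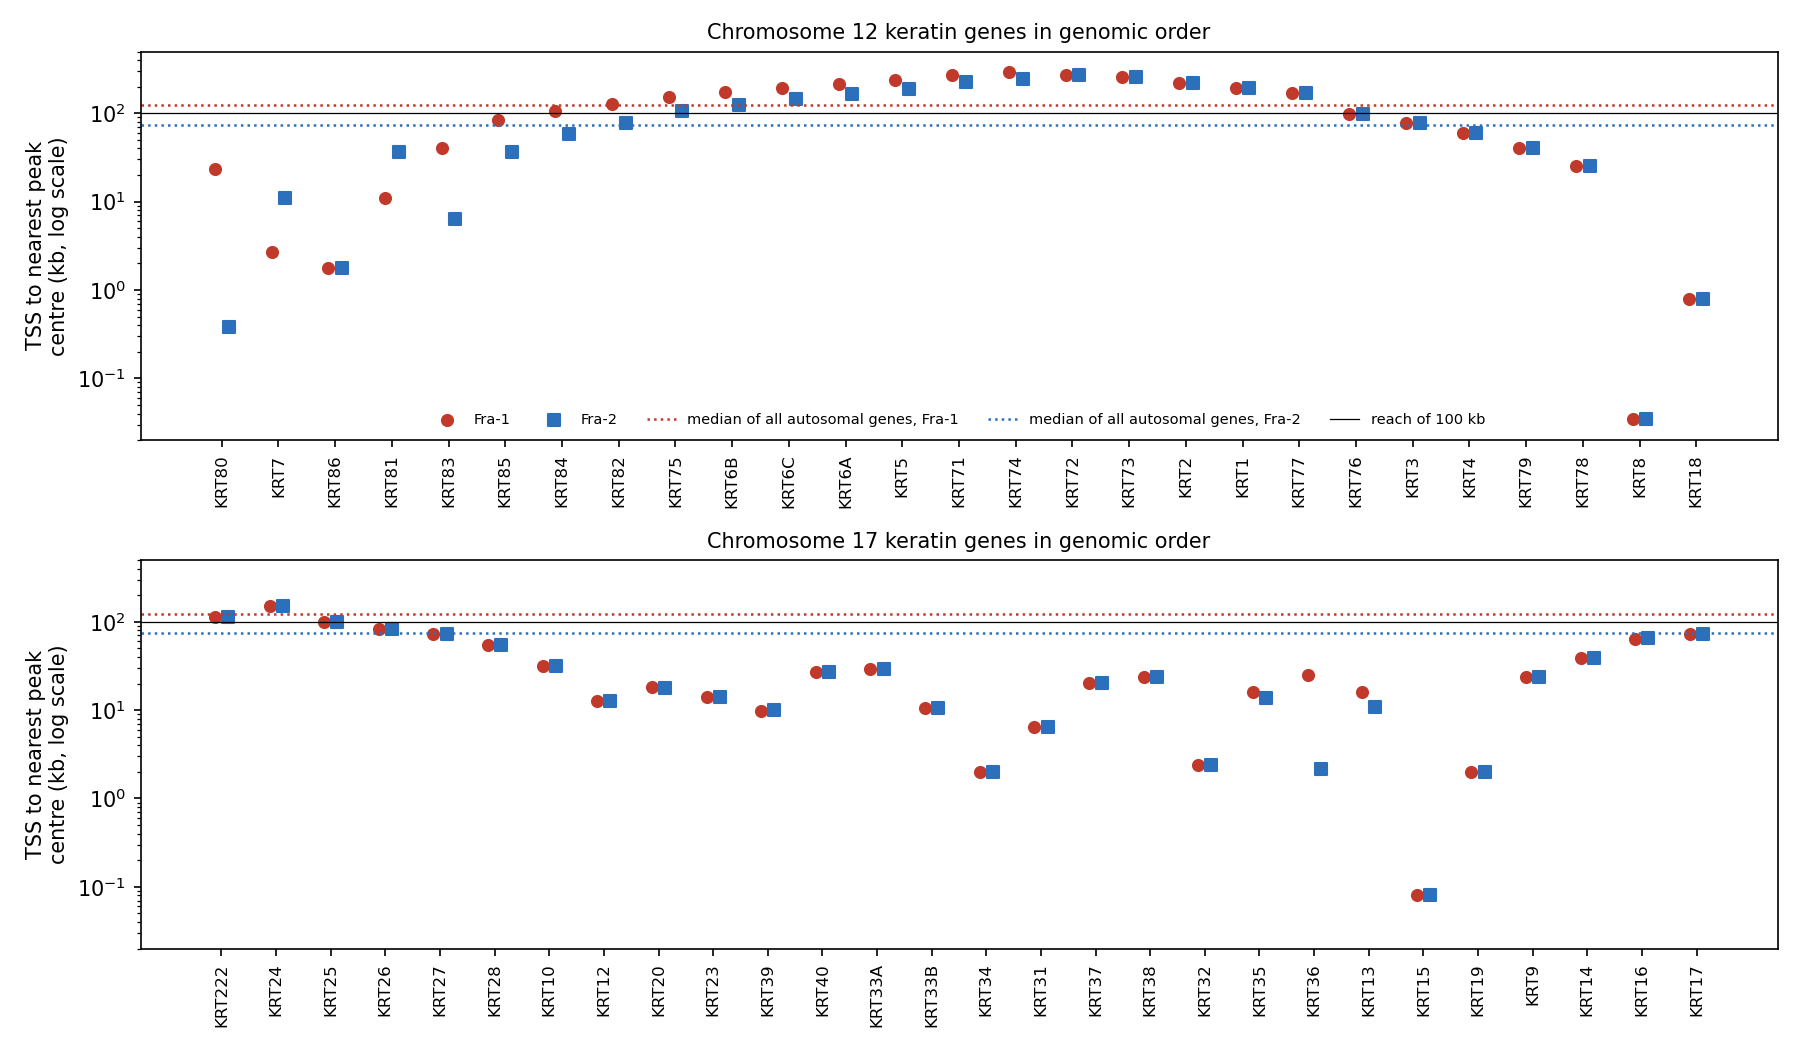
Distance in kb (log scale) from the nearest start site of each keratin gene to the nearest Fra-1 (circles) and Fra-2 (squares) peak centre, in genomic order. On chromosome 12 the distances climb from the ends of the cluster to 293 kb at KRT74; on chromosome 17 they stay below 100 kb for all genes but KRT222 and KRT24. Dotted lines are the medians of all autosomal genes, 124 kb for Fra-1 and 73.7 kb for Fra-2.

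Grouped by where the keratins are made, those of simple epithelium were nearest to peaks. All 5 (KRT7, KRT8, KRT18, KRT19, KRT20) had peaks of both lists in reach, and 4 of them within 10 kb of a start or in the body, with a median distance of 2.02 kb in both lists. From canonical starts alone the median was 2.7 kb for Fra-1 and 11 kb for Fra-2. Among all autosomal genes, 45.2% had a Fra-1 and 58.9% a Fra-2 peak in reach, and 16.5% and 23.7% had one within 10 kb or in the body. The 10 genes of the upper layers of stratified epithelium had none within 10 kb, and 7 had one in reach of 100 kb. The 6 wound and appendage genes had 2 in reach, KRT16 and KRT17. All 8 inner root sheath genes lay beyond 10 kb, with the 4 on chromosome 17 in reach and the 4 on chromosome 12 not. Of 17 hair fibre genes, 15 had a Fra-1 and 17 a Fra-2 peak in reach. Within 10 kb of a start or in the body the counts were 5 and 7. On chromosome 17, which holds 11 of them, 54% and 74.9% of all genes had such peaks in reach. Within 10 kb or in the body the shares of its genes were 16.2% and 26.2%. Among the 3 basal genes, KRT14 and KRT15 had peaks of both lists in reach, and KRT15 also within 10 kb. Neighbours in these groups share peaks, and the groups were formed with earlier results of these data known, so the order is a description.

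Partners in a filament, whose genes are on different chromosomes apart from KRT8 and KRT18, differed in their peaks. KRT5 had 0 peaks of either list against 3 Fra-1 and 4 Fra-2 for KRT14. KRT1 had 0 against 4 and 5 for KRT10, and KRT6A had 0 against 3 of each for KRT16. For the corneal pair, KRT3 had 1 peak of each list and KRT12 had 5 Fra-1 and 6 Fra-2. For the pair of mucosal epithelium, KRT4 had 1 of each and KRT13 had 4 and 5. In each of these 5 pairs, named after their values were seen, the chromosome 17 partner had more peaks. This did not hold for all keratins made together. In simple epithelium, KRT7 of chromosome 12 had 6 Fra-1 and 7 Fra-2 peaks, and KRT19 of chromosome 17 had 4 and 5. Since neighbours share peaks, the pairs are not separate observations of the difference between the clusters.

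The reach of 100 kb sets much of the count. Just inside it were KRT25 at 99.1 kb and KRT76 at 97.1 kb from both lists, and just outside KRT84 at 105 kb for Fra-1, KRT75 at 107 kb for Fra-2 and KRT222 at 113 kb for both. Within 10 kb of a start or in the gene body, 4 of 27 chromosome 12 genes had a Fra-1 peak (14.8%, beside 16.5% of all autosomal genes) and 6 a Fra-2 peak (22.2%, beside 23.7%). The same share over all chromosome 12 genes was 14.6% and 21.9%. On chromosome 17 the counts were 6 of 28 (21.4%, beside 16.2% of its genes) and 7 (25%, beside 26.2%). Close peaks were thus about as common as at genes in general, and the high count on chromosome 17 rested on peaks farther out. In the gene body alone, 4 chromosome 12 keratins had a Fra-1 peak (14.8%, beside 12.4% of that chromosome's genes). A Fra-2 peak was in the body of 4 as well (14.8%, beside 17.7%). KRT7, KRT8 and KRT18 had both, KRT86 a Fra-1 peak alone and KRT80 a Fra-2 peak alone. On chromosome 17, 3 keratins had a peak of each list in the body (10.7%, beside 10.1% for Fra-1 and 17% for Fra-2). Among all autosomal genes the shares in the body were 13.2% and 18.4%. A Fra-1 peak lay within 1 kb of a start of 3 keratins (5.45%, beside 1.9% of all autosomal genes), which were KRT8 and KRT18 by the same peak and KRT15. A Fra-2 peak did so for these and for KRT80 (7.27%, beside 3.73%). By chromosome these were 2 and 3 on chromosome 12, where 1.73% and 4.23% of genes had such a peak, and 1 for each list on chromosome 17, where 2.52% and 5.47% had. With canonical starts alone they remained near KRT18, for both lists, and KRT80, for Fra-2.

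At sites in both lists the calls coincided closely. The centres of the 19 shared pairs were identical in 13 and 25 bp apart in the other 6. Widths were equal in 9 pairs, larger in the Fra-2 list in 7 and larger in the Fra-1 list in 3. Of the Fra-1 peaks at keratin genes 86.4% (exact binomial 95% interval 65.1 to 97.1) were shared, beside 79.6% of autosomal Fra-1 peaks outside repeat-like regions (tandem repeats and the margins of long assembly gaps), and of the Fra-2 peaks 73.1% (52.2 to 88.4), beside 59.1%. On chromosome 12 this held for 6 of 8 peaks in the Fra-1 list and 6 of 10 in the Fra-2 list, and on chromosome 17 for 13 of 14 and 13 of 16. Intervals cover counting error only, and the number of peaks limits what can be told from such shares.

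**Figure D4:**
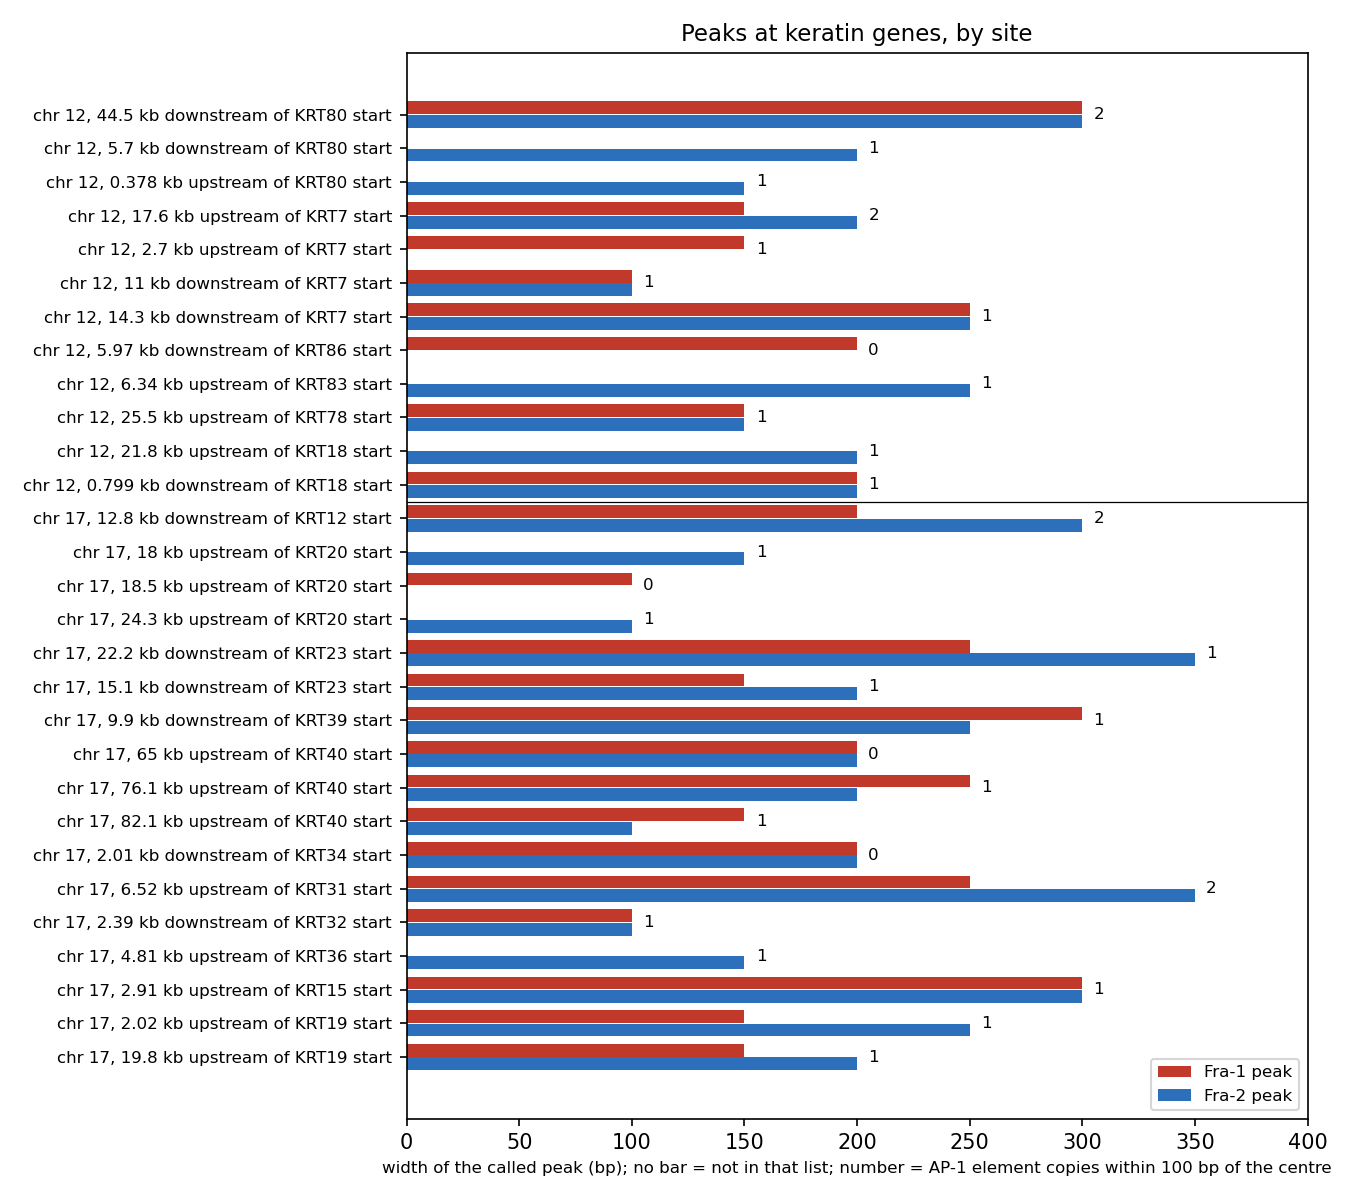
Width in bp of the Fra-1 and Fra-2 peak at each of the 29 sites, in genomic order, with the distance to the nearest canonical keratin start at the left and the number of AP-1 elements within 100 bp of the centre beside the bars. Widths run from 100 to 350 bp; sites with a single bar were in 1 list only, and the line divides chromosome 12 from chromosome 17.

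The AP-1 element was present at most of these sites. Within 100 bp of the centre it lay in 18 of 22 Fra-1 peaks (81.8%, 59.7 to 94.8) and 24 of 26 Fra-2 peaks (92.3%, 74.9 to 99.1). The share of autosomal peaks outside repeat-like regions that held it was 65.6% for Fra-1 and 75.6% for Fra-2, each within the interval of the keratin peaks. Among all windows of 201 bp tiled along chromosomes 12 and 17 the shares were 3.06% and 3.15%. Of the 4 Fra-1 peaks without a copy, those near KRT86 and KRT20 were in the Fra-1 list only, while the other two were shared, one of them near KRTAP2-1. The TEAD core was in 8 Fra-1 (36.4%, 17.2 to 59.3) and 9 Fra-2 peaks (34.6%, 17.2 to 55.7), beside 23.5% and 20.4% of the autosomal peaks outside repeat-like regions and 10.6% and 10.3% of the tiled windows on chromosomes 12 and 17. TGACGTCA, the cyclic AMP response element, was in 0 of 22 and 0 of 26, with exact binomial upper limits of 15.4% and 13.2%, and was in 0.238% and 0.45% of the autosomal peaks outside repeat-like regions. No peak at a keratin gene was repeat-like, and the median width was 200 bp in both lists, where autosomal peaks outside repeat-like regions had 150 bp in the Fra-1 list and 200 bp in the other.

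Few keratin promoters held the element, and the counts are too small to rank against promoters in general. From 250 bp before to 50 bp after the canonical start, 0 of 27 chromosome 12 and 1 of 28 chromosome 17 genes had TGAGTCA or TGACTCA, beside 3.51% of 18643 autosomal genes. The gene with a copy was KRT16, whose nearest peaks were 64.6 and 64.7 kb away. The letters say nothing of factors outside that window.

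For comparison, lists were taken of genes whose products work with keratins and of other intermediate filament genes. The KRTAP genes inside the chromosome 17 cluster had a Fra-1 peak in reach in 30 of 34 cases and a Fra-2 peak in the same number, while 2 of the 60 KRTAP genes on chromosomes 11 and 21 did for each list. Close to KRTAP genes, shared peaks lay near KRTAP2-1 (39205451 to 39205651), KRTAP2-3 and KRTAP2-4, and beyond reach of a keratin near KRTAP4-9 and KRTAP4-6. Desmosome and plakin genes, which anchor keratin filaments at cell junctions, had a Fra-1 peak in reach in 7 of 14 and a Fra-2 peak in 10 of 14. PKP3, a plakophilin, had a Fra-1 peak 0.023 kb and a Fra-2 peak 0.048 kb from a start, and DST, which encodes a plakin of hemidesmosomes, had 9 Fra-1 and 11 Fra-2 peaks. JUP, the plakoglobin gene beside the chromosome 17 cluster, had none. Cornified envelope genes, which act in the outermost epidermis, had 3 and 6 of 11. Other intermediate filament genes had 10 of 13 in each list, with a shared peak 0.012 kb from a start of VIM, the vimentin gene of mesenchymal cells, and 6 Fra-1 and 11 Fra-2 peaks at LMNA, which encodes nuclear lamins. Of all autosomal genes 45.2% and 58.9% had such peaks, and none of these differences was tested.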

How the data were processed

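Fra-1, Fra-2 and input DNA were measured by ChIP-seq in MDA-MB-231 cells. The submitters' processing notes name Bowtie2 and hg19, with no role or version. Which program called the peaks is not given in the sources used here, nor how it was set, whether the input entered or whether replicates were pooled. The deposited lists hold the authors' peak starts and ends on a grid of 50 bp (9998 Fra-1 and 13003 Fra-2 peaks), and depth is unknown. Every start is 1 more than a multiple of 50, and positions were taken to be 1-based; no nuclear peak passed its chromosome's end in GRCh37.

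Peaks were tied to GENCODE 44 genes on GRCh37 as the text states, with pandas 2.3.3, pysam 0.24.0, scipy 1.17.1 and numpy 2.4.6 in Python 3.11.15; figures used matplotlib 3.10.9. A peak counted as shared when it overlapped one of the other list by 1 bp or more. Elements on either strand were counted up to 100 bp from a peak's centre. Peaks were set apart as repeat-like on chromosomes Y and M, within 1 Mb of a run of N at least 1 Mb long, or where more than 20% of 10-base words occurred repeatedly in the 1000 bp on either side. Gene assignment was tested on simulated data (100 of 100 planted genes recovered among 19229). With 1 list per antibody no test was possible; shares have exact binomial (Clopper-Pearson) 95% intervals. Named were keratins with a peak in the body or within 10 kb of a start, fixed representatives of each epithelium, every such peak but 1, which is not reported here, and the 3 widest peaks per cluster and list; further genes at the ends of gaps, in filament pairs or near the reach limit were chosen after their values were seen. The members and gene lists were chosen with earlier results of these data known. Alternatives tried were other reaches, nearest TSS, other starts, wider peaks, other overlaps and other windows.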

Additional observations from a re-analysis of the deposited data

How the results depend on the processing

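Of 126 recomputed values, 83 stayed within 1.5 times the count, or within the interval of the share, as reported, and 43 did not. With a reach of 10 kb, keratin genes with a Fra-1 peak fell from 39 to 10 (4 on chromosome 12, 6 on chromosome 17) and with a Fra-2 peak from 41 to 13 (6 and 7). Gene bodies alone gave 7 for each list (4 and 3 for each). Assigning each peak to the nearest TSS alone gave 14 for Fra-1 (5 and 9) and 16 for Fra-2 (6 and 10), since neighbours no longer share peaks. Peaks at least 200 bp wide left 8 chromosome 12 genes for Fra-1 in place of 13. Other intermediate filament genes fell from 10 to 6 within 10 kb, 5 in bodies and 6 by nearest TSS, for each list. Desmosome and plakin genes fell to 6 within 10 kb for Fra-2, and to 4 for Fra-1 and 5 for Fra-2 in bodies. Cornified envelope genes fell for Fra-1 from 3 to 0 within 10 kb, 1 within 50 kb, 0 in bodies, 0 by nearest TSS and 0 with wide peaks, and for Fra-2 from 6 to 1 within 10 kb, 0 in bodies, 1 by nearest TSS and 2 with wide peaks. KRTAP genes fell from 32 to 10 within 10 kb, 0 in bodies and 5 by nearest TSS, for each list. These alternatives use a narrower rule or fewer peaks by construction, and all autosomal genes fell too, from 45.2% for Fra-1 and 58.9% for Fra-2. Their shares were 16.5% and 23.7% within 10 kb, 30.8% and 42.8% within 50 kb, and 13.2% and 18.4% in bodies. By nearest TSS they were 18.9% and 25.3%, and with peaks at least 200 bp wide 28% and 39.6%. Shares of shared peaks and of peaks with the AP-1 element stayed within their intervals under each alternative run. The canonical start was added after the data were seen. No replicate could be left out and no paired analysis was possible because each antibody has 1 list.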
